A study of Mus musculus with 6 samples.

Results

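The genes described here encode the machinery by which B cells show peptides on MHC class II molecules: H2-Aa, H2-Ab1, H2-Eb1, Cd74, Ciita, H2-DMa, H2-DMb1, H2-DMb2, H2-Oa and H2-Ob. They were taken by gene symbol from the deposited table of 37620 genes. The 10 symbols matched 11 rows, because Ciita stands in the table under the identifiers ENSMUSG00000022504 and ENSMUSG00000075404. All 11 rows passed the filter on low counts. Mouse splenic B cells infected with pMIR-Sox2, a retroviral vector carrying the transcription factor gene Sox2 (3 libraries), were compared with B cells infected with the vector pMIR (3 libraries). The cells of either group came from C57Bl/6 mice aged 4 months, had been activated ex vivo with IL-4 (12.5 µg/ml) and anti-CD40 (1 µg/ml), had been spin-infected at 24 and 48 h, and were sorted at 96 h on mCherry, which marks infection. Total RNA was sequenced, and whether the replicates came from separate animals is not stated, so a p-value reflects the spread among these libraries alone, which may be technical.

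MHC class II molecules are pairs of an alpha and a beta chain that carry peptides from the endosome to the cell surface for CD4 T cells. Cd74, the invariant chain, fills the groove of newly made pairs and guides them to the endosome, where H2-DM exchanges its remnant for antigen peptides and H2-DO holds H2-DM in check. Transcription of most of these genes depends on Ciita, a coactivator that binds no DNA itself and is recruited by the RFX, CREB and NF-Y proteins that sit on the X and Y boxes of class II promoters. B cells express the whole set constitutively, and IL-4 and CD40 signals raise surface class II further.

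The promoters are shown first because the X and Y boxes are the feature by which Ciita reaches its targets. The RefSeq promoter table of build GRCm38.p6 (250 bases before to 50 after each start) held 8 windows for 7 of the 10 genes. H2-Ab1, Cd74 and Ciita had no entry. The Y box is an inverted CCAAT sequence. In 6 genes the letters TGATTGG, which hold it, began 45 to 92 bases upstream of the start. Stretches of 110 bases, 5′ to 3′ on the strand of the gene and placed so that TGATTGG falls at the same point in each, are given below. The capitals mark TGATTGG, the letters ATGATGC where they precede it, and the letters GNAAC where they lie 25 to 35 bases before it, the last 2 being parts of the X box region.
H2-Aa, GRCm38.p6 chr17:34287839-34287948, minus strand: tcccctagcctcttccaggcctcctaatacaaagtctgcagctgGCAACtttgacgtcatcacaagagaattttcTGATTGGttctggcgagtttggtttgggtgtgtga
H2-Eb1, GRCm38.p6 chr17:34305731-34305840, plus strand: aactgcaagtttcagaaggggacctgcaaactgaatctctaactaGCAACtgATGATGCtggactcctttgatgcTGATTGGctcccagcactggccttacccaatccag
H2-DMb1, GRCm38.p6 chr17:34153053-34153162, plus strand: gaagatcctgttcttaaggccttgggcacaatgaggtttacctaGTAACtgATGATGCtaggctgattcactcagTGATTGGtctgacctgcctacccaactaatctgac
H2-DMb2, GRCm38.p6 chr17:34145082-34145191, plus strand: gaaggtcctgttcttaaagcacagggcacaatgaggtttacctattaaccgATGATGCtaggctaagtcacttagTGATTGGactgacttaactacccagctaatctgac
H2-Ob, GRCm38.p6 chr17:34238771-34238880, plus strand: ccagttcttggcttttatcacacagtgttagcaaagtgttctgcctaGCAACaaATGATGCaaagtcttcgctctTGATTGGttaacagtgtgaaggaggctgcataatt
H2-Oa, GRCm38.p6 chr17:34092259-34092368, plus strand: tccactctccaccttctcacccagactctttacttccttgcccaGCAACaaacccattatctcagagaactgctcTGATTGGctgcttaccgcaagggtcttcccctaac

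TGATTGG was preceded by ATGATGC, by GNAAC or by both, in genes that fell and in genes that did not pass the test. Both preceded it in H2-Eb1, H2-DMb1 and H2-Ob, of which H2-Ob did not pass. ATGATGC began 21 bases before TGATTGG in H2-Ob, 23 in H2-Eb1 and 24 in H2-DMb1 and H2-DMb2. GNAAC began 28 to 31 bases before it in H2-Aa, H2-Eb1, H2-DMb1, H2-Ob and H2-Oa. On either strand, TGATTGG occurred in 7.82% of the 32851 promoter windows of the table and ATGATGC in 2.46%. The pair with ATGATGC 15 to 45 bases upstream of TGATTGG occurred in 9 windows, 0.0274% of all, and 4 of the 9 belonged to class II genes. GNAAC 25 to 35 bases upstream of TGATTGG occurred in 0.323%. These letters were picked after the promoters had been read. Of motifs taken from general knowledge, ATTGG, which TGATTGG contains, was found in 7 of the 8 class II windows, against 37.4% of all windows. These 7 windows covered all 7 genes. CAGATG followed 15 to 45 bases on by ATTGG was found in none of the 8. CAGATG alone was in 2 of the 8 windows, those of H2-Oa and H2-Aa, against 17.2% of all windows. The SOX core letters ACAATG or ACAAAG occurred in 5 of the 8 windows (1 each of H2-Aa, H2-DMa, H2-DMb1, H2-DMb2 and H2-Ob), against 28.6% of all windows. Matches of letters describe the sequence and do not show binding.

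Transcripts of the class II pathway were lower with Sox2 in 9 of the 11 rows (8 of the 10 genes), and the 2 H2-O genes did not pass the test. Genes were tested with edgeR's quasi-likelihood test over the whole table, adjusted by Benjamini-Hochberg, with a threshold of 0.05 on the adjusted p. The background was large, since 20% of the 12898 genes tested were called lower and 23.2% higher. Of the 11 rows, 5 (4 of the 10 genes) were called and more than 2-fold lower, against 5.10% of all genes tested. H2-Aa and Cd74 were close to that limit, and with library totals they fell short of it (log2 fold changes of −0.94 and −0.96). None was called higher, 0 had an unadjusted p under 0.05 in that direction in edgeR, and DESeq2 and limma-voom also called 0 higher. In 9 rows every pMIR-Sox2 library was below every pMIR library, as in 27.6% of all genes tested. Calls in either direction took in 43.2% of all genes tested, and 56.5% had groups that stood apart one way or the other. The median log2 fold change of the 11 rows was −0.69, against −0.02 over all genes tested. Together the rows took 0.777 to 1.22% of a library's gene counts in pMIR-Sox2 and 1.53 to 1.82% in pMIR. Under other settings the share of all genes called lower was 16.0% with library totals, 19.7% with RLE size factors, 20.3% with DESeq2, 20.2% with limma-voom, 11.1% with no filter and 25.7% with the replicate block. The share called higher under these was 26.5%, 23.3%, 23.4%, 23.1%, 15.3% and 27.0% in the same order. Without pMIR-Sox2 replicate 1, 2 or 3 in turn it was 14.3%, 14.7% and 21.7% lower and 18.8%, 19% and 25% higher, and without pMIR replicate 1, 2 or 3 it was 13.5%, 17.9% and 14.0% lower and 17.9%, 20.9% and 18.3% higher. The class II rows called lower numbered 7 to 9 in every one of these settings. In bulk RNA, fewer cells expressing a gene and less RNA of it per cell cannot be told apart.

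Gene counts per library were 17153805 to 20770447 in pMIR-Sox2 and 21421769 to 27692437 in pMIR. Values are given as CPM, gene counts relative to a library size scaled by TMM. Sox2 itself was read at 989, 786 and 624 CPM in pMIR-Sox2 replicates 1 to 3, against 0.738, 0.334 and 1.78 CPM in pMIR replicates 1 to 3, and introduced and endogenous transcripts were not separated. On the first principal component (83.4% of the variance) pMIR-Sox2 replicate 3 lay nearest to the pMIR libraries. It was also the highest of the 3 pMIR-Sox2 libraries in each of the 9 rows called lower, as it was in 71.4% of all genes called lower. Markers of B cells were present, with a summed level of 7 markers of 2662 to 3720 CPM in pMIR-Sox2 and 5140 to 6032 CPM in pMIR. Of these 7, 5 were called lower, beside 20% of all genes tested. Cd79b, part of the B cell receptor, changed by −1.19 in log2 and Ms4a1, which encodes CD20, by −1.79. Cd79a, the partner of Cd79b, stood at 674, 889 and 729 CPM in pMIR-Sox2 and at 547, 756 and 653 CPM in pMIR and did not pass (0.23, adjusted p = 0.255). The T cell markers Cd3e, Cd3d, Cd3g, Cd4, Cd8a and Cd8b1 did not exceed 0.238 CPM in any library. The rest of that list, Thy1, Lck and Cd5, was above this level in every library. Mean levels in pMIR-Sox2 and pMIR were 305 and 195 CPM for Thy1, 47.8 and 59.4 CPM for Lck, and 2.95 and 1.63 CPM for Cd5. Of these only Thy1 was called.

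**Figure D1:**
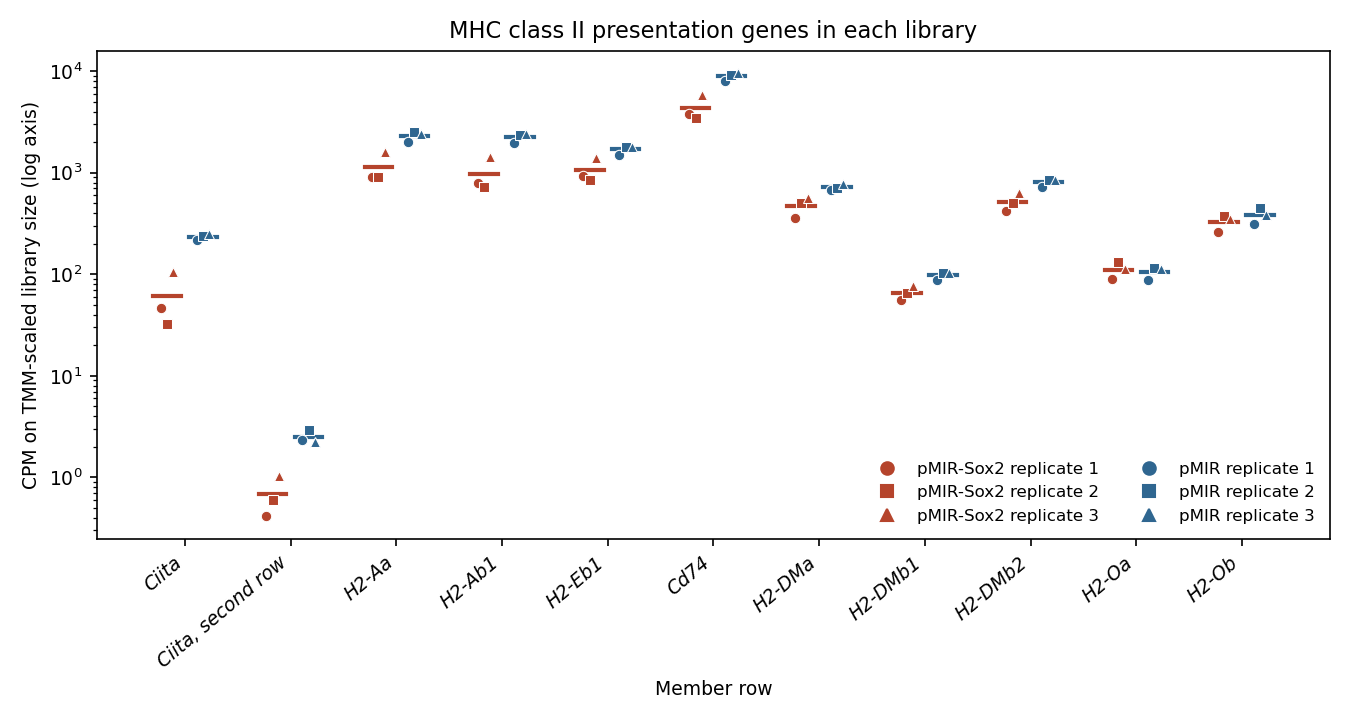
CPM of each of the 11 member rows in every library on a log axis, with pMIR-Sox2 left of pMIR, 1 symbol per replicate and a bar at the mean of 3. The pMIR-Sox2 points lie below all pMIR points in 9 rows and mix with them in H2-Oa and H2-Ob.

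Ciita, the coactivator, fell furthest. Its main row (ENSMUSG00000022504) stood at 46.5, 32.3 and 105 CPM in pMIR-Sox2 replicates 1 to 3, against 216, 238 and 249 CPM in pMIR replicates 1 to 3. Every pMIR-Sox2 library was below every pMIR library, and replicate 3 was the highest of the 3. The mean was 61.2 ± 38.4 CPM in pMIR-Sox2 and 234 ± 16.9 CPM in pMIR (SD, n = 3 each). The log2 fold change was −1.94 ± 0.36 (SE), to 26.1% of the pMIR level, with an adjusted p of 0.00282 in edgeR. Of all genes tested, 1.02% had a lower log2 fold change. Without pMIR-Sox2 replicate 3 the log2 fold change was −2.56. With no filter on low counts the value was −1.92 and the adjusted p 0.0613, the single one of 12 alternatives in which Ciita did not pass.

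The second Ciita row (ENSMUSG00000075404) is not among the identifiers of the GENCODE M21 annotation, so what part of the locus it covers is not known here. It held 9, 11 and 18 counts in pMIR-Sox2, against 64, 61 and 46 counts in pMIR. Counts were thus low throughout, with no overlap between the groups. Its change was −1.88 ± 0.34 in log2 (SE, adjusted p = 0.00217 in edgeR), which lies within 1 SE of the main row.

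The chains of the classical class II molecules also fell. H2-Aa, the alpha chain of I-A, stood at 909, 914 and 1615 CPM in pMIR-Sox2 and at 1995, 2510 and 2414 CPM in pMIR. H2-Ab1, the beta chain that pairs with it, stood at 789, 719 and 1434 CPM in pMIR-Sox2 and at 1974, 2347 and 2405 CPM in pMIR. For either chain replicate 3 of pMIR-Sox2 was well above the other two and still below the lowest pMIR library. H2-Aa changed by −1.01 ± 0.23 (log2, SE, adjusted p = 0.00663) and H2-Ab1 by −1.19 ± 0.25 (adjusted p = 0.00471).

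H2-Eb1, the beta chain of I-E, stood at 918, 855 and 1389 CPM in pMIR-Sox2 and at 1510, 1784 and 1802 CPM in pMIR. H2-Eb1 changed by −0.69 ± 0.19 (log2, SE, adjusted p = 0.0152 in edgeR), and that p was 0.0571 without pMIR-Sox2 replicate 1 and 0.0551 without pMIR replicate 3. C57BL/6 mice make no I-E alpha chain, and the row of that pseudogene, H2-Ea-ps, held at most 0.369 CPM. H2-Eb2, a further beta chain gene of the locus, stood at 67.8, 61.3 and 72.3 CPM in pMIR-Sox2 and at 61.0, 83.2 and 75.3 CPM in pMIR, with overlapping libraries, and did not pass (−0.12, adjusted p = 0.467).

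Cd74, the invariant chain, was the most abundant member. It stood at 3795, 3488 and 5829 CPM in pMIR-Sox2 and at 8063, 9220 and 9609 CPM in pMIR. The groups did not overlap. Its log2 fold change was −1.04 ± 0.20 (SE), to 48.8% of the pMIR level, with an adjusted p of 0.00297 in edgeR and at most 0.0147 over its 12 alternatives. The ratio of Cd74 to the sum of H2-Aa, H2-Ab1 and H2-Eb1, the chains it binds, was 1.38, 1.34 and 1.25 per kilobase in pMIR-Sox2 and 1.41, 1.33 and 1.39 in pMIR (two-sided exact permutation p = 0.4, adjusted 0.45). These ratios overlapped between the groups.

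All 3 genes of the peptide editor H2-DM fell, to between 64.3 and 67.5% of the pMIR level. H2-DMa, its alpha chain, stood at 358, 503 and 560 CPM in pMIR-Sox2 and at 671, 703 and 772 CPM in pMIR. H2-DMb2 stood at 425, 501 and 634 CPM in pMIR-Sox2 and at 729, 852 and 842 CPM in pMIR. H2-DMb1, the other beta chain gene, stood at 55.6, 65.3 and 76.0 CPM in pMIR-Sox2 and at 87.9, 102 and 102 CPM in pMIR. In these genes pMIR-Sox2 replicate 1 was the lowest library and replicate 3 the highest of its group, with no overlap with pMIR. The log2 fold changes were −0.59 ± 0.16 for H2-DMa (SE, adjusted p = 0.0159), −0.64 ± 0.15 for H2-DMb2 (adjusted p = 0.0094) and −0.57 ± 0.13 for H2-DMb1 (adjusted p = 0.00708). For H2-DMa the adjusted p was 0.0629 without pMIR replicate 3.

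H2-DMb1 and H2-DMb2 are close copies, and their counts are uncertain where reads could come from either. Their GENCODE M21 transcripts of 1404 and 1424 bases were identical at 1179 of 1255 aligned positions (93.9%), and 369 of the 1355 windows of 50 bases in H2-DMb1 (27.2%) also occurred in H2-DMb2. The ratio of H2-DMb1 to H2-DMb2 per kilobase was 0.129 ± 0.00633 in pMIR-Sox2 and 0.122 ± 0.000583 in pMIR (SD, n = 3 each, two-sided exact permutation p = 0.3, adjusted 0.386). With their counts added into 1 feature the log2 fold change was −0.63 (adjusted p = 0.00945).

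The H2-DM inhibitor H2-DO did not pass the test in either chain. H2-Oa stood at 90.6, 131 and 112 CPM in pMIR-Sox2 and at 88.1, 116 and 112 CPM in pMIR. H2-Ob stood at 261, 376 and 350 CPM in pMIR-Sox2 and at 312, 448 and 386 CPM in pMIR. The libraries of the groups overlapped in either gene, and replicate 1 was the lowest and replicate 2 the highest within each group. The log2 fold change of H2-Oa was 0.08 with a 95% interval of −0.27 to 0.43 (adjusted p = 0.707), and that of H2-Ob was −0.21 with an interval of −0.60 to 0.17 (adjusted p = 0.335). Within same-numbered pairs H2-Ob was lower in pMIR-Sox2 in 3 of 3, and with the replicate block it stood at −0.22 (adjusted p = 0.0764). Neither passed under any of the 12 alternatives, and H2-Oa was −0.06 without pMIR-Sox2 replicate 2 and −0.04 without pMIR replicate 1. The antisense transcript BC051537 covers part of H2-Oa and shares 21.7% of the 50-base windows of its transcript. Exons of Brd2 on the opposite strand cover 10.4% of the exon bases of H2-DMa, and those of Dexi 3.45% of Ciita. The strand setting of the counting is not given in the sources used here, so reads of such partners cannot be told apart. Brd2 itself stood at −0.00 (adjusted p = 0.982).

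**Figure D2:**
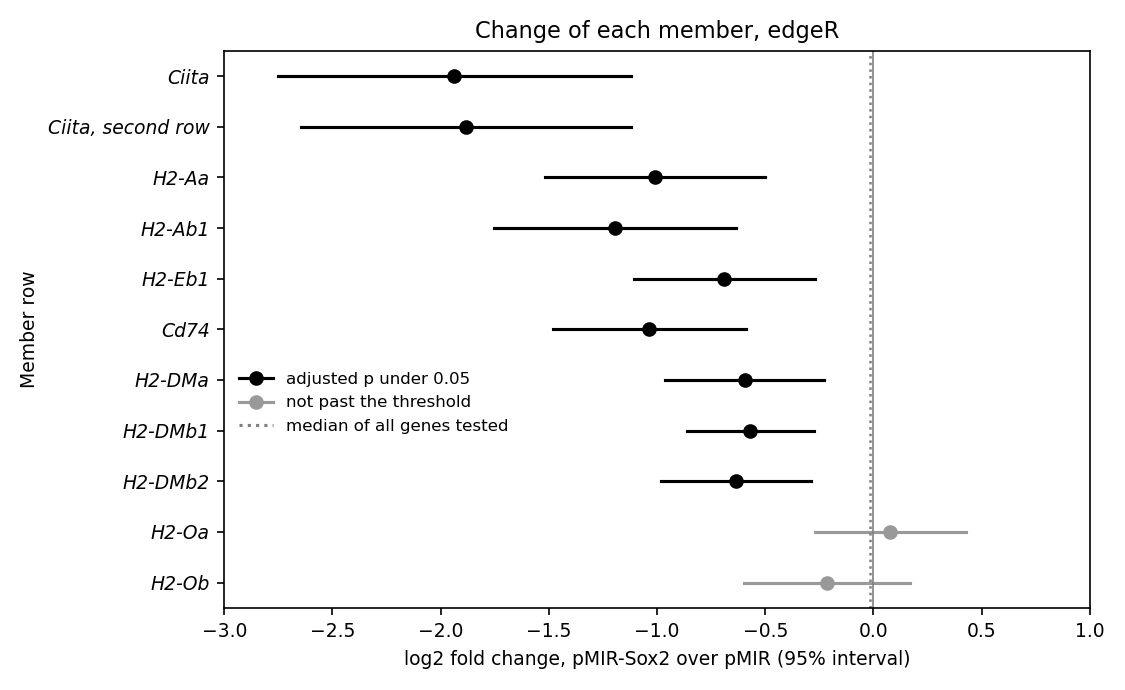
Log2 fold change of each member row, pMIR-Sox2 over pMIR, with its 95% interval from edgeR, in black where the adjusted p is under 0.05 and in grey where it is not. Values run from −1.94 for Ciita through −1.19 to −0.57 for the chains, Cd74 and H2-DM to 0.08 for H2-Oa, and the dotted line marks the median of all genes tested.

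Because the members changed by different amounts, their proportions within a library were compared, using CPM per kilobase of the first GENCODE M21 transcript of each gene. Such ratios do not depend on how libraries are scaled. In all, 9 ratios were tested with a two-sided exact permutation test over libraries, which left the replicate pairs aside. Its smallest possible p with 3 against 3 is 0.1, and Benjamini-Hochberg adjustment took 0.1 to 0.15. The ratio of H2-DM to H2-DO was 3.06, 2.68 and 3.58 in pMIR-Sox2 and 4.95, 3.99 and 4.57 in pMIR (exact permutation p = 0.1). All 3 pMIR-Sox2 libraries were below all 3 pMIR libraries, and the mean log2 difference was −0.54, with a range of −0.65 to −0.44 when each library was left out in turn.

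The ratio of Ciita to the 3 classical chains was lower in every pMIR-Sox2 library, with a mean log2 difference of −1.10 (exact permutation p = 0.1). The ratio of the chains to H2-DM was 4.05, 3.04 and 4.54 in pMIR-Sox2 and 4.79, 5.19 and 5.01 in pMIR (exact permutation p = 0.1). The groups were again apart, by −0.39 in mean log2. Within the I-A pair, the ratio of H2-Aa to H2-Ab1 was higher in all 3 pMIR-Sox2 libraries (1.27 ± 0.0838, against 1.10 ± 0.0386 in pMIR, SD, n = 3 each, exact permutation p = 0.1). The ratio of H2-Oa to H2-Ob was also higher in all 3 (0.830 ± 0.0407, against 0.680 ± 0.0382 in pMIR, exact permutation p = 0.1). The ratio of H2-DMa to its beta chains overlapped between the groups (0.693 ± 0.0625 in pMIR-Sox2 and 0.679 ± 0.0412 in pMIR, exact permutation p = 0.9).

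**Figure D3:**
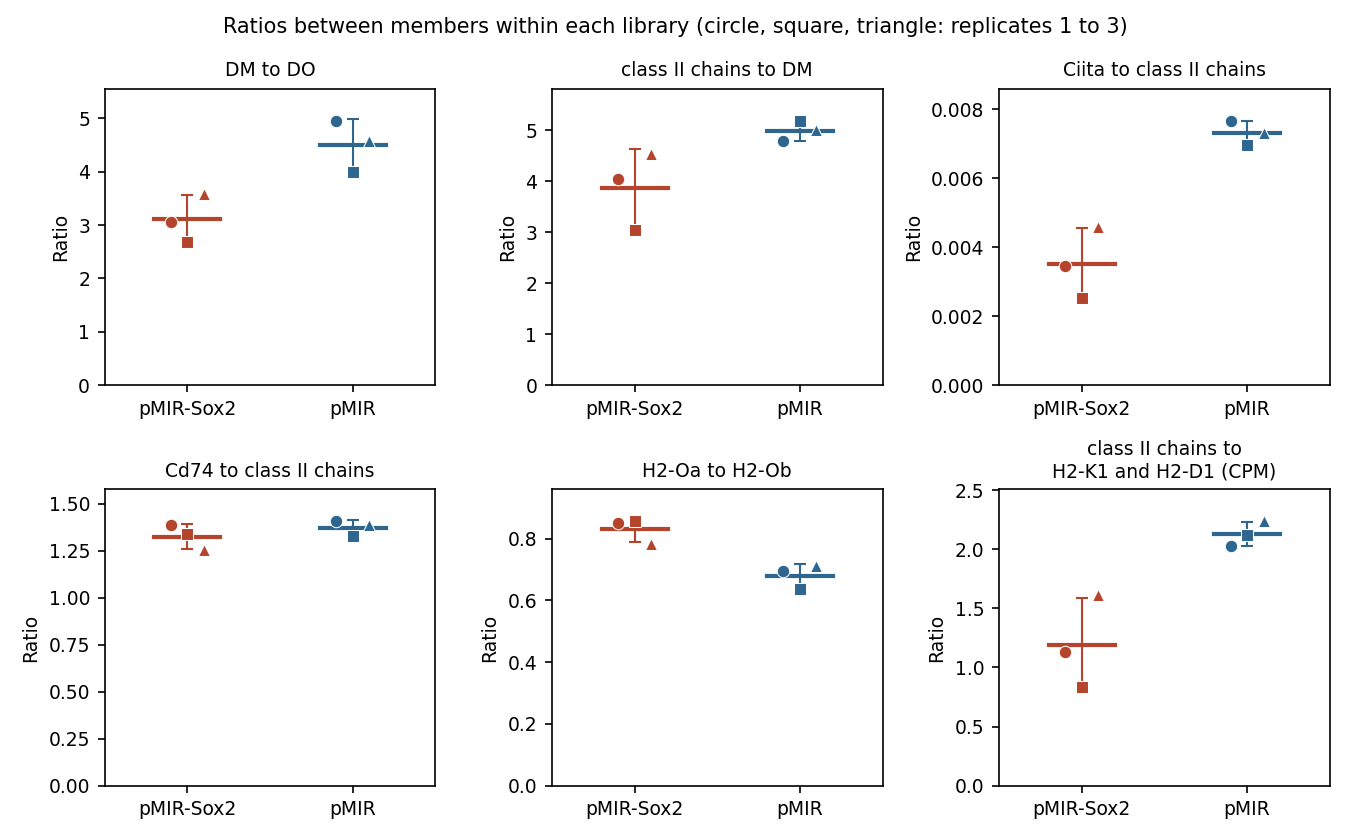
Ratios between members in each library, with pMIR-Sox2 left of pMIR, 1 symbol per replicate, the bar at the mean and the whiskers at 1 SD (n = 3); the first 5 use CPM per kilobase and the last uses CPM. The groups do not overlap except in the ratio of Cd74 to the class II chains, which is 1.32 in pMIR-Sox2 and 1.37 in pMIR.

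With the transcript lengths used, the order of the levels per kilobase was much the same in both groups. The order of genes within a group depends on that choice of length. The transcript used for H2-Aa has 1128 bases, against 3798 in all its annotated exons together. For H2-Ob these lengths are 2670 and 5380 bases. In pMIR-Sox2, Cd74 led at 3571 ± 1040 CPM per kilobase, followed by H2-Aa (1016 ± 360), H2-Eb1 (900 ± 249) and H2-Ab1 (809 ± 325). In pMIR, Cd74 led at 7324 ± 657 CPM per kilobase, followed by H2-Aa (2045 ± 243), H2-Ab1 (1850 ± 193) and H2-Eb1 (1450 ± 140; SD, n = 3 throughout). H2-Eb1 and H2-Ab1 thus stood in the opposite order in the groups, and their libraries overlapped in pMIR-Sox2 but not in pMIR. Below them came H2-DMb2, H2-DMa, H2-Ob, H2-Oa, H2-DMb1 and Ciita in either group. Ciita was the lowest, at 10.2 ± 6.39 CPM per kilobase in pMIR-Sox2 and 39.0 ± 2.81 in pMIR. The libraries of neighbours in this order also overlapped for H2-Aa with the next chain in either group, and, in pMIR-Sox2, for H2-DMb2 with H2-DMa and for H2-Ob with H2-Oa.

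Genes for the proteins that hold Ciita on the promoter went both ways. Of 11 genes of the RFX, NF-Y and CREB group and their coactivators, 2 rose, 1 fell and 8 did not pass, with a median log2 fold change of 0.01, beside the 43.2% of all genes tested that were called. Nfya, the DNA-reading subunit of NF-Y, fell, standing at 57.2, 43.9 and 79.7 CPM in pMIR-Sox2 and at 119, 109 and 127 CPM in pMIR (−0.97 ± 0.19, SE, adjusted p = 0.00358). Its partner Nfyb rose by 0.34 (adjusted p = 0.0157) and Kat2b, an acetyltransferase, by 0.77 (adjusted p = 0.00111). Rfx5, the large RFX subunit, stood at 59.9, 53.8 and 58.1 CPM in pMIR-Sox2 and at 60.6, 65.8 and 70.9 CPM in pMIR and did not pass (−0.20, adjusted p = 0.141). Rfxank (−0.27, adjusted p = 0.0557) and Atf1 (−0.24, adjusted p = 0.0857) did not pass either. In Nfya, Rfx5, Rfxank and Atf1 every pMIR-Sox2 library was below every pMIR library, as in 27.6% of all genes tested. The falls numbered 2 with the replicate block and without pMIR-Sox2 replicate 3, and the rises 1 without pMIR replicate 2 or without pMIR replicate 3.

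Transcription factors known to act on Ciita, or of the B lineage more widely, went both ways. Among 13 rows tested, 4 were higher, 5 lower and 4 not called, with a median of −0.07. The shares over all genes tested were 23.2% higher and 20% lower. Zbtb32, a repressor that acts on Ciita together with Blimp-1, fell to 0.735, 0.487 and 1.56 CPM in pMIR-Sox2, against 6.90, 9.44 and 7.92 CPM in pMIR (−3.13, adjusted p = 0.000185). Prdm1, which encodes Blimp-1 itself, rose to 27.2, 25.5 and 13.6 CPM in pMIR-Sox2, against 9.85, 8.67 and 10.6 CPM in pMIR (1.19, adjusted p = 0.00397). Irf4, an activator of the B cell promoter of Ciita, fell to 143, 126 and 160 CPM in pMIR-Sox2, against 658, 341 and 417 CPM in pMIR (−1.72, adjusted p = 0.000494). None of these libraries overlapped between the groups, as in 56.5% of all genes tested, counting either direction. Among B lineage factors, Ebf1 rose by 0.89 and Pax5 by 0.89, while Spib (−0.49), Irf8 (−0.50) and Stat6, which relays IL-4 signals (−0.36), fell. Prdm1, Pax5, Spib, Irf8, Stat6, Rfx5, Rfxank and Atf1 were named after their values had been seen. The falls numbered 3 without pMIR replicate 3.

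A list mostly of enzymes that prepare peptides and trim Cd74 also went both ways, with 5 of 12 higher, 4 lower and 3 not called. Its median was 0.23. The rises included Cst3, which encodes an inhibitor of such proteases and is no enzyme (0.52, adjusted p = 0.0111). The shares over all genes tested were 23.2% higher and 20% lower. Ifi30, the thiol reductase GILT that opens disulfide bonds of antigens, fell to 118, 121 and 220 CPM in pMIR-Sox2, against 343, 524 and 517 CPM in pMIR (−1.59, adjusted p = 0.00147). Ctss, the protease that makes the last cut in Cd74 in B cells, was at 159, 180 and 220 CPM in pMIR-Sox2 and at 219, 263 and 275 CPM in pMIR, with overlapping libraries, and passed at −0.44 (adjusted p = 0.0339). Ctsl, the related protease of thymic epithelium, rose to 23.5, 38.1 and 19.4 CPM in pMIR-Sox2, against 6.08, 7.10 and 6.77 CPM in pMIR (2.02, adjusted p = 0.000273). Ctsz, a carboxypeptidase, fell by 0.59 on the log2 scale (adjusted p = 0.00271). Ctss and Cst3 were named after their values had been seen. The rises numbered 3 without pMIR-Sox2 replicate 1 or 2, 1 without pMIR replicate 1 and 2 without pMIR replicate 3.

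Among 12 genes of class II trafficking and turnover, 2 rose, 5 fell and 5 did not pass, with a median of −0.46. The shares over all genes tested were 23.2% higher and 20% lower. March8, a ubiquitin ligase that takes class II molecules off the surface, was matched by its identifier ENSMUSG00000025702 because its symbol is garbled in the table. It stood at 46.0, 39.2 and 22.7 CPM in pMIR-Sox2 and at 4.17, 5.53 and 5.19 CPM in pMIR (2.86, adjusted p = 8.19e-05). Il10, a cytokine that dampens antigen presentation, stood at 3.72, 6.06 and 2.43 CPM in pMIR-Sox2 and at 0.701, 0.953 and 1.49 CPM in pMIR (1.97, adjusted p = 0.00371). Cd81, a tetraspanin of the B cell surface, fell by 0.52 on the log2 scale (adjusted p = 0.0046). Cd83, which protects class II from ubiquitin ligases and was named after its values had been seen, fell to 422, 499 and 550 CPM in pMIR-Sox2, against 707, 710 and 782 CPM in pMIR (−0.58, adjusted p = 0.00533). March1, the ligase of the same family that B cells use, had overlapping libraries and did not pass (−0.64, adjusted p = 0.103).

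The class I pathway, which presents peptides of the cytosol, served as a comparison. Of its 16 tested rows 6 fell, 0 rose and 10 did not pass, with a median of −0.26. Of all genes tested, 20% were called lower and 23.2% higher. With the replicate block 10 of the class I rows fell, beside 25.7% of all genes tested. No class I row rose at an unadjusted p under 0.05 in edgeR or at an adjusted one in DESeq2 or limma-voom. The smallest adjusted p-values were those of folding factors of the endoplasmic reticulum, Calr (−0.98), Pdia3 (−0.51) and Canx (−0.62), which serve many proteins. The heavy chains H2-K1 (−0.18, adjusted p = 0.286) and H2-D1 (−0.06, adjusted p = 0.744) and their partner B2m (0.14, adjusted p = 0.501), named after their values had been seen, did not pass. H2-K1 was at 1266, 1652 and 1566 CPM in pMIR-Sox2 and at 1581, 1772 and 1737 CPM in pMIR. The ratio of the 3 class II chains to H2-K1 plus H2-D1, in CPM, was 1.13, 0.836 and 1.61 in pMIR-Sox2 and 2.03, 2.12 and 2.24 in pMIR (exact permutation p = 0.1, log2 difference −0.89). Every pMIR-Sox2 library was below every pMIR library in that ratio. Class I heavy chain genes resemble each other, so reads that map to several of them may be missing from these counts.

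**Figure D4:**
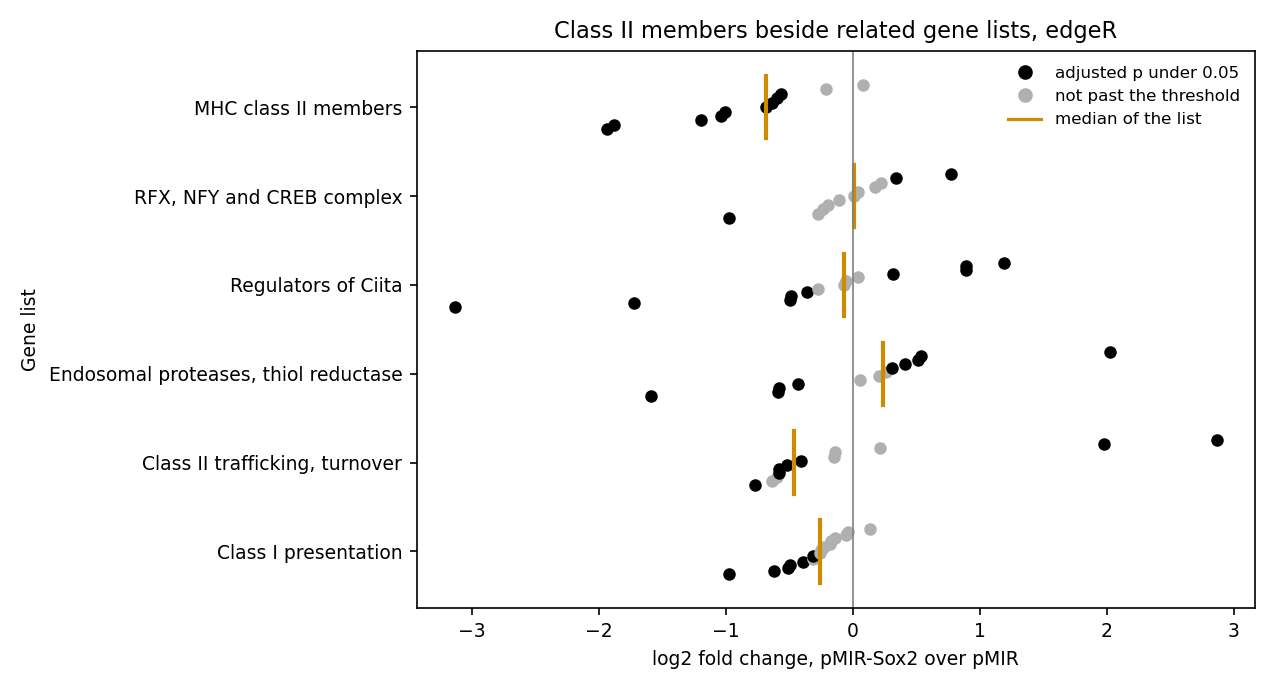
Log2 fold changes, pMIR-Sox2 over pMIR, of the 11 class II rows and of 5 related gene lists, 1 point per tested row, black where the adjusted p is under 0.05, with the list's median as a bar. The class II median is −0.69, against 0.01 for the RFX, NF-Y and CREB group and −0.26 for class I.

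Dendritic cells also carry class II, and some markers of that lineage moved with the members. The summed CPM of 9 dendritic cell markers was 12.9 to 15.5 in pMIR-Sox2 and 33.7 to 44.0 in pMIR, and 2 of 3 tested fell, Zbtb46 (−1.94) and Flt3 (−1.18). The third, Itgax, which encodes CD11c, stood at 1.52, 0.974 and 1.33 CPM in pMIR-Sox2 and at 0.701, 0.0953 and 1.06 CPM in pMIR and did not pass (1.04, adjusted p = 0.152). Of its other surface genes, Siglech, Clec9a, Xcr1, Cd209a and Clec10a did not exceed 0.258 CPM in any library. Ccr9 stood at 0.827, 0.541 and 0.232 CPM in pMIR-Sox2 and at 0.479, 0.381 and 0.480 CPM in pMIR. It did not pass the filter on low counts. The 9 macrophage and monocyte markers summed to 39.2 to 44.7 CPM in pMIR-Sox2 and 37.2 to 39.3 CPM in pMIR. Of these, 3 of 5 tested rose, with Itgam at 2.76, while Cd68 fell (−1.12). Emr1 rose to 25.4, 30.3 and 26.5 CPM in pMIR-Sox2, against 17.0, 20.5 and 18.2 CPM in pMIR (0.56, adjusted p = 0.0063 in edgeR). Lyz2 rose but was near 0 throughout, at 0.541 to 0.781 CPM in pMIR-Sox2 and at most 0.048 CPM in pMIR. Of 7 plasma cell markers 6 were tested, of which 1 rose, 4 fell and 1 did not pass, with the list summing to 490 to 587 CPM in pMIR-Sox2 and 832 to 925 CPM in pMIR. Derl3 (−1.98), Slamf7 (−1.20) and Igj (−4.36) were among the falls. The 9 T cell markers summed to 331 to 398 CPM in pMIR-Sox2 and 222 to 286 CPM in pMIR, most of it from Thy1, which rose (0.64). The 6 NK cell markers summed to 5.74 to 10.2 CPM in pMIR-Sox2 and 2.67 to 3.07 CPM in pMIR. Of these Klrd1 rose, at 3.58, 7.95 and 3.07 CPM in pMIR-Sox2 and at most 0.0477 CPM in pMIR. Of 8 granulocyte and erythroid markers 0 passed the filter. Beside these marker counts, 20% of all genes tested were called lower and 23.2% higher. The part of these lineages in the class II results was not tested. Btnl2, a gene of the class II locus that is no member, fell to 1.19, 1.08 and 1.85 CPM in pMIR-Sox2, against 3.39, 4.77 and 4.18 CPM in pMIR (−1.58, adjusted p = 0.00174).

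The profile of Ciita over the 6 libraries was followed most closely by Slc43a3, Ccnt1 and Krr1 among 7241 genes outside the class II set with a mean of at least 20 CPM, each with Pearson's r of 0.997 on log2 CPM. For Cd74 the closest were Ccnt1 (0.999), Mtf2 (0.999) and Ms4a1 (0.997). Such values are common where groups stand apart, and 1430 genes had an r over 0.9 with Ciita and 1234 with Cd74. Ms4a1 was at 142, 143 and 330 CPM in pMIR-Sox2 and at 597, 761 and 765 CPM in pMIR, and was highest among the pMIR-Sox2 libraries in replicate 3, as were the 9 class II rows called lower.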

How the data were processed

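The authors deposited 1 table of raw counts, with a row per Ensembl gene and a column per library. The submitters' processing notes name, without saying what each was used for, build mm9, HTSeq 0.6.1p1, SAMtools 0.1.19, Bowtie2 2.2.2, TopHat2 2.0.11 and Trimmomatic 0.32. Its 5 last lines belong to no gene; they held 46.8 to 48.1% of a library's total and were removed before any fit. Reads without a unique alignment accounted for 23.1 to 26.5% of a total, so near-identical genes can be undercounted.

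The fit used edgeR 4.0.16 under R 4.3.3 (filterByExpr, TMM, robust quasi-likelihood, Benjamini-Hochberg over all genes, Sox2 left out of gene counts). SE is the log2 fold change over the square root of F. The fit was tested on simulated data. Alternatives were library totals, RLE size factors, no filter, DESeq2 1.42.0, limma-voom (limma 3.58.1), the replicate block and leaving out each library. The labels give each replicate pair a shared number (8, 9 or 12). Deviations from the group means correlated over genes at r = 0.242, 0.359 and 0.189 within replicate pairs 1, 2 and 3. Between libraries of unlike number r ran from −0.241 to 0.0341. Deviations cancel within a group, so these values are not independent of those within pairs. The numbers were therefore taken to pair the samples in the replicate block. The main fit and the permutation tests of ratios did not use the pairing. GENCODE M21 (GRCm38, another build than mm9) gave transcript lengths and overlaps; it held 32897 of 37620 identifiers.

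Members, lists and tests were chosen with earlier results of these data known, and 7 of the 9 ratios were added after the values had been seen. Named were all members, up to 3 genes per list with the smallest adjusted p, and others as stated.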

Additional observations from a re-analysis of the deposited data

How the results depend on the processing

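The number of the 11 class II rows called lower was 9 with library totals, RLE size factors, DESeq2, limma-voom and the replicate block, 8 with no filter, and 7 to 9 when each library was left out in turn, while 0 rows were called higher under any of these. The replicate block changed none of the calls of the 11 rows, and over all genes it gave 3486 higher and 3314 lower, against 2990 and 2577 without it. Over all genes 2362 to 3321 were higher and 1783 to 2885 lower when a library was left out. With library totals only, 62.4% of called genes were higher, against 53.7% with TMM, and the median of all genes moved to 0.06, against −0.02; the 9 calls of the class II rows held there. Calls were lost for H2-Eb1 without pMIR-Sox2 replicate 1 (−0.59, adjusted p = 0.0571) and without pMIR replicate 3 (−0.65, 0.0551), for H2-DMa without pMIR replicate 3 (−0.54, 0.0629) and for Ciita with no filter (−1.92, 0.0613); the cause was not tested. H2-Oa, never past the threshold, ran from −0.056 to 0.21 when a library was left out and changed sign without pMIR-Sox2 replicate 2 (−0.056) and without pMIR replicate 1 (−0.042). The log2 difference in the ratio of DM to DO ran from −0.65 to −0.44 and that of Cd74 to the chains from −0.08 to −0.01 when a library was left out. With 3 libraries a group and the pairing left aside, exact tests of ratios cannot go below 0.1.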
